A study of Mus musculus with 9 samples.

Results

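The 9 genes of the core pathway of ovarian steroid synthesis, namely Star, Cyp11a1, Hsd3b1, Hsd3b6, Cyp17a1, Cyp19a1, Fdx1, Fdxr and Por, were followed in whole ovaries of WT and ERβKO mice. They were picked by gene symbol from the 46078 genes with deposited counts, and each symbol matched a single row. All 9 passed the filter on low counts, which kept 16722 genes. Ovarian steroids are made from cholesterol, which the protein of Star brings to the inner mitochondrial membrane. There Cyp11a1 cuts the side chain to give pregnenolone, with electrons that Fdxr takes from NADPH and Fdx1 carries. The 3β-hydroxysteroid dehydrogenases turn pregnenolone into progesterone, Cyp17a1 of the theca makes androgens, Cyp19a1 (aromatase) of the granulosa makes estrogens from them, and Por feeds electrons to both of these microsomal P450 enzymes. Corpora lutea are known for high Star, Cyp11a1 and Hsd3b1 and for making progesterone.

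RNA-seq was made from 5 WT and 4 ERβKO ovaries (1 library each) of mice on a C57BL/6J background. The treatment label of each sample reads untreated, but the treatment protocol given with all samples describes a high-fat or control diet and injections of the estrogen receptor ligand DPN or vehicle, and whether any of this applied to these ovaries is not settled by the labels. ERβKO mice carried a germline deletion of exon 3 of Esr2, the ERβ gene, made from a floxed allele with a Rosa26-Cre deleter, so that the receptor was lost in every cell type, and WT controls were offspring without Cre. The ovaries were not synchronized. The methods give an age range for the mice of the study as a whole. Neither the age nor the cycle stage of the single ovaries is given by the labels. Between 12353740 and 18717510 fragments were counted per library. Esr2 itself, counted over the whole gene with the exons that the deletion leaves, had 16.7 ± 4.5 FPKM in WT against 16.1 ± 5.5 FPKM in ERβKO ovaries (mean ± SD, n = 5 WT and n = 4 ERβKO), and so its count did not separate the genotypes. FPKM is the count per kilobase of transcript, scaled to the sequencing depth, and levels of different genes are compared here only in FPKM. The tissue markers were those of an ovary with attached oviduct. All 8 oocyte and all 10 granulosa markers were measured, and Ovgp1, a secreted protein of the oviduct, ran from 1294 to 2359 FPKM. Of the markers of the adrenal cortex, the other tissue that makes steroids from cholesterol, Cyp21a1 reached at most 0.0158 FPKM and Cyp11b2 0.126 FPKM, while Cyp11b1 reached 4.58 FPKM in WT replicate 3. In these bulk samples, fewer cells of a type and less RNA per cell cannot be told apart.

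The genes spanned more than 3 orders of magnitude in level. In WT ovaries the order of the mean levels was Hsd3b1 (2533 FPKM), Cyp11a1 (1353 FPKM), Star (197 FPKM), Fdx1 (146 FPKM), Fdxr (95.8 FPKM), Cyp17a1 (48.4 FPKM), Por (38.2 FPKM), Cyp19a1 (9.80 FPKM) and Hsd3b6 (0.668 FPKM). Neighbours from Star down to Por overlapped between ovaries, whereas Hsd3b1 exceeded Cyp11a1 in each of the 9 ovaries. The ranges of Cyp11a1 and Star, of Por and Cyp19a1, and of Cyp19a1 and Hsd3b6 did not overlap in WT ovaries. In ERβKO ovaries Cyp17a1 (246 FPKM) came next after Hsd3b1 (1684 FPKM) and Cyp11a1 (753 FPKM), and Star (53.4 FPKM) came after Fdx1 (100.1 FPKM) and Fdxr (60.5 FPKM) and before Por (41.9 FPKM), Cyp19a1 (16.0 FPKM) and Hsd3b6 (0.706 FPKM). Among the ERβKO neighbours, Cyp17a1 overlapped Fdx1, Fdxr overlapped Star, and Star overlapped Por. By mean FPKM, Hsd3b1 had rank 14 among all genes in both genotypes. Cyp11a1 had rank 17 in WT and 27 in ERβKO ovaries, and Star 210 and 881, while Cyp17a1 had 998 and 153.

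**Figure D1:**
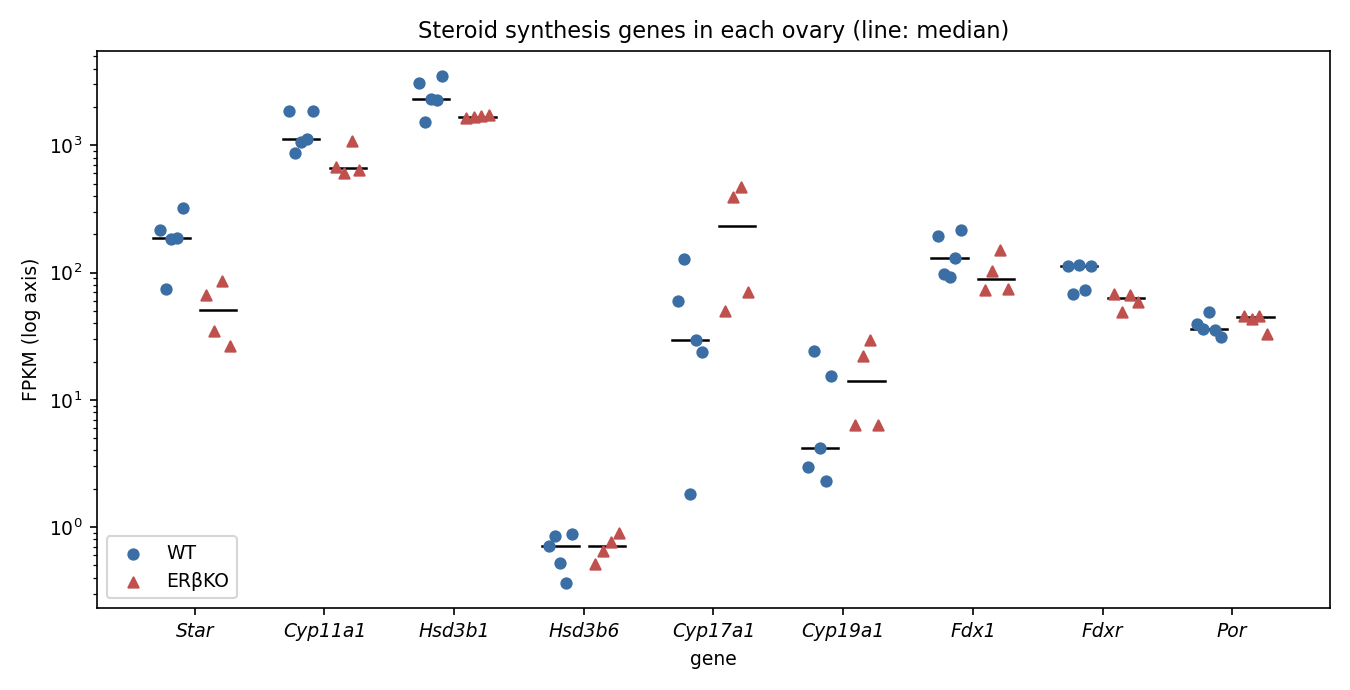
Level of each gene in each ovary, in FPKM on a log axis, for 5 WT (circles) and 4 ERβKO ovaries (triangles), with the median as a line. Star lies mostly lower in ERβKO ovaries, Cyp17a1 spreads from 1.82 to 472 FPKM, and Hsd3b1 is nearly level in the 4 ERβKO ovaries.

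Star, Cyp11a1, Hsd3b1 and Fdxr had lower mean levels in ERβKO than in WT ovaries, Cyp17a1 had a higher one. None of these differences passed the threshold in edgeR after correction for all genes tested, and those of Star, Cyp11a1 and Fdxr passed in DESeq2. In edgeR's quasi-likelihood test, 0 of the 9 genes were called, where a call needed an adjusted p under 0.05, a log2 fold change beyond 0.4 in size and more than 1 FPKM on average in WT or ERβKO ovaries. Over all tested genes 1.72% were called. At an unadjusted p under 0.05, 4 of the 9 genes were lower and 1 was higher in ERβKO ovaries, against 10.0% and 9.81% of all tested genes (19.8% in either direction). DESeq2, the tool of the study, called 3 of the 9 (Star, Cyp11a1 and Fdxr, all lower), where it called 2.56% of all genes as lower and 4.78% in either direction. Limma on log2 FPKM called 0. Without WT replicate 2, edgeR called 4 genes lower (Star, Cyp11a1, Hsd3b1 and Fdxr) against 2.61% of all genes. For none of the 9 genes were the FPKM values of the genotypes fully apart, as they were for 7.61% of all tested genes. The median log2 fold change (ERβKO over WT) was -0.56 over the 9 genes and 0.00 over all tested genes.

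**Figure D2:**
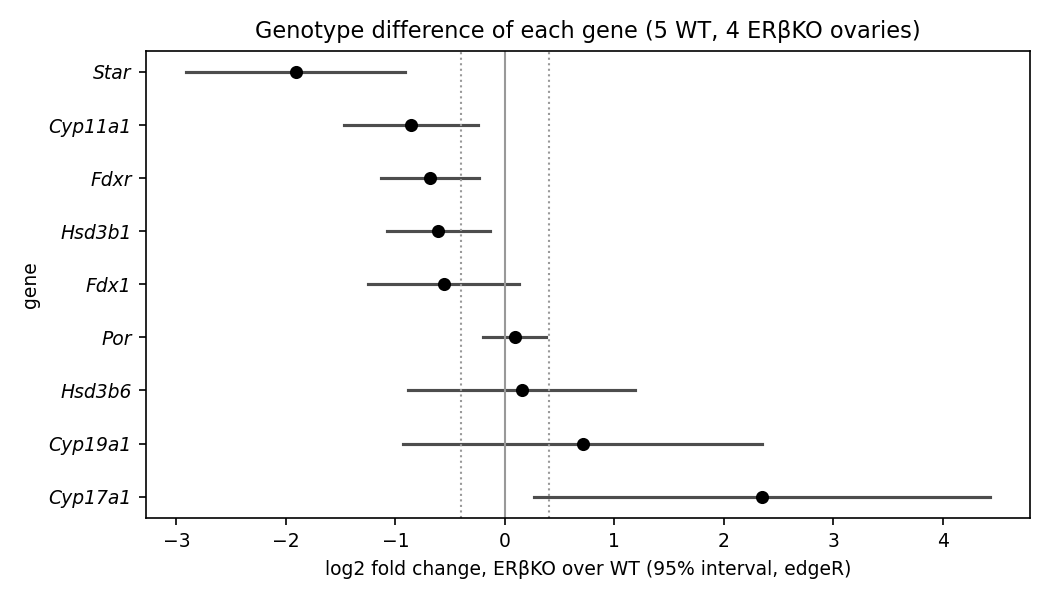
Log2 fold change of each gene (ERβKO over WT) with its 95% interval from edgeR, not adjusted for the number of genes. The dotted lines mark a log2 fold change of 0.4 in either direction. The intervals of Star, Cyp11a1, Fdxr and Hsd3b1 lie below 0 and that of Cyp17a1 above it.

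Star, which controls the entry of cholesterol into the mitochondrion, was at 217, 73.8, 185, 187 and 324 FPKM in WT replicates 1 to 5 and at 66.5, 34.9, 85.4 and 26.7 FPKM in ERβKO replicates 1 to 4. WT replicate 2 lay among the ERβKO ovaries, and 3 of the 4 ERβKO ovaries were below every WT ovary. This gave a log2 fold change of -1.91 (standard error 0.45, 95% interval -2.91 to -0.91), or 0.266 of the WT level. In edgeR's quasi-likelihood test the Benjamini-Hochberg adjusted p was 0.0573, and in DESeq2 it was 0.00321. It was 0.0135 in edgeR without WT replicate 2 and lay between 0.00321 and 0.207 in the 20 alternatives. Star (ENSMUSG00000031574) is on chromosome 8 of GRCm38 from 25808474 to 25814723.

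Cyp11a1, the side-chain cleavage enzyme, was measured at 1865, 872, 1061, 1118 and 1851 FPKM in the WT ovaries and at 680, 608, 1088 and 634 FPKM in the ERβKO ovaries, in replicate order. WT replicates 1 and 5 stood above the others, and ERβKO replicate 3 reached the level of WT replicates 3 and 4. On the log2 scale Cyp11a1 differed by -0.86 (standard error 0.28, 95% interval -1.47 to -0.25), with an adjusted p of 0.128 in edgeR and of 0.0242 in DESeq2 (Benjamini-Hochberg). Without ERβKO replicate 3 the log2 fold change was -1.11 with an edgeR adjusted p of 0.0886, and without WT replicate 2 it was -0.99 with an edgeR adjusted p of 0.0488. Cyp11a1 (ENSMUSG00000032323) lies on chromosome 9 of GRCm38 from 58006411 to 58027023, and 3.02% of its exon bases are shared with the gene Gm17322 on the same strand.

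Fdxr and Fdx1 make up the electron chain of Cyp11a1. Fdxr, the reductase, had 112, 67.4, 113.9, 73.3 and 112 FPKM in the WT ovaries and 68.1, 48.8, 66.7 and 58.5 FPKM in the ERβKO ovaries. WT replicates 2 and 4 lay close to the ERβKO ovaries, of which 3 were below every WT ovary. The log2 difference of Fdxr between the genotypes was -0.68 (standard error 0.20, 95% interval -1.13 to -0.23), with adjusted p-values of 0.107 from edgeR and 0.0195 from DESeq2. For Fdx1, the ferredoxin, the WT ovaries had 192, 96.5, 92.6, 131 and 216 FPKM and the ERβKO ovaries 73.1, 102, 151 and 74.6 FPKM. Fdx1 overlapped widely, with 2 of the 4 ERβKO ovaries below every WT ovary. The difference of Fdx1, as log2 fold change, was -0.56 (standard error 0.31, 95% interval -1.25 to 0.13), and its adjusted p was 0.350 in edgeR and 0.271 in DESeq2. Fdxr (ENSMUSG00000018861) lies on chromosome 11 of GRCm38 from 115268024 to 115277050 and Fdx1 (ENSMUSG00000032051) on chromosome 9 from 51943307 to 51963533.

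Of the 3β-hydroxysteroid dehydrogenases, Hsd3b1 was the most abundant transcript of the pathway. It was measured at 3099, 1514, 2307, 2252 and 3494 FPKM in the WT ovaries and at 1643, 1657, 1694 and 1740 FPKM in the ERβKO ovaries. The WT ovaries differed up to 2.31-fold among themselves and the ERβKO ovaries up to 1.06-fold, and WT replicate 2 was the lowest of all 9. The log2 fold change of Hsd3b1 was -0.61 (standard error 0.21, 95% interval -1.08 to -0.14), with an adjusted p of 0.154 in edgeR, of 0.0515 in DESeq2 and of 0.0202 in edgeR without WT replicate 2. Hsd3b6, a paralog best known from the testis and adrenal, stayed between 0.367 and 0.905 FPKM in all 9 ovaries, on 6 to 33 counts per ovary. The log2 fold change of Hsd3b6 was 0.16 (standard error 0.47, 95% interval -0.88 to 1.19, edgeR adjusted p = 0.888). It changed sign when single ovaries were left out. Of the other genes of the family, Hsd3b7, whose enzyme acts on bile acid precursors, was at 11.7 ± 1.8 FPKM in WT against 12.9 ± 0.51 FPKM in ERβKO ovaries (mean ± SD, n = 5 WT and n = 4 ERβKO), and Hsd3b2, Hsd3b3, Hsd3b4 and Hsd3b5 were each at or below 0.184 FPKM in every ovary.

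The 2 genes lie near each other on the minus strand of chromosome 3 of GRCm38, with pseudogenes between them, Hsd3b1 (ENSMUSG00000027871) from 98852194 to 98859794 and Hsd3b6 (ENSMUSG00000027869) from 98805504 to 98814443. Reads of one could be placed on the other, since their coding sequences of 1119 bases each are 89.99% identical. The longest identical run was 72 bases, and 0 of the 970 stretches of 150 bases (the read length) in the coding sequence of Hsd3b6 occurred in that of Hsd3b1. The sequences below are coding bases 64 to 153 of each, shown because the values of Hsd3b6 rest on such differences. The 19 bases that differ are in capitals. Both stretches are exonic and cross an intron, at chr3:98856151-98857901 for Hsd3b1 and chr3:98807922-98810983 for Hsd3b6, on the minus strand.
Hsd3b1: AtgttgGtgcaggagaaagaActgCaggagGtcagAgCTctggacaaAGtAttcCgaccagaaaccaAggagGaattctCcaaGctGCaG
Hsd3b6: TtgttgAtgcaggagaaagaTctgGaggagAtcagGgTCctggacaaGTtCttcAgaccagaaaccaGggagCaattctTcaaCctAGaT
Hsd3b6 was at 0.000230 of the FPKM of Hsd3b1 in the median WT ovary and at 0.000420 in the median ERβKO ovary. Whether a part of these few counts came from Hsd3b1 was not tested.

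Cyp17a1, the enzyme that opens the way to androgens, varied most between ovaries. It was at 59.2, 128, 1.82, 29.4 and 23.8 FPKM in the WT ovaries and at 50.04, 390, 472 and 70.9 FPKM in the ERβKO ovaries. ERβKO replicates 2 and 3 were above every WT ovary, while ERβKO replicates 1 and 4 lay within the WT range. WT replicate 3, on 74 counts, was far below all others, and the 9 ovaries spanned 259-fold. On the log2 scale the fold change was 2.35 (standard error 0.94, 95% interval 0.26 to 4.43), with an adjusted p of 0.205 in edgeR and of 0.161 in DESeq2. Over the 20 alternative fits its log2 fold change ran from 1.77 to 3.09 and its adjusted p from 0.0806 to 0.512. Cyp17a1 (ENSMUSG00000003555) lies on chromosome 19 of GRCm38 from 46667165 to 46672974.

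Cyp19a1, which makes estrogens, was measured at 2.94, 24.2, 4.16, 2.31 and 15.4 FPKM in the WT ovaries and at 6.38, 22.0, 29.4 and 6.38 FPKM in the ERβKO ovaries. High and low ovaries were found in both genotypes, namely WT replicates 2 and 5 and ERβKO replicates 2 and 3 against the other 5. The log2 fold change of Cyp19a1 was 0.71 (standard error 0.74, 95% interval -0.93 to 2.35), with an edgeR adjusted p of 0.638 and a DESeq2 adjusted p of 0.703. An interval this wide holds both a higher and a lower level in ERβKO ovaries. With single ovaries left out the log2 fold change ran from 0.19 (without ERβKO replicate 3) to 1.38 (without WT replicate 2). Cyp19a1 (ENSMUSG00000032274) is on chromosome 9 of GRCm38 from 54165937 to 54193442.

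Por was the steadiest of the 9 genes, at 31.4 to 49.0 FPKM in WT and 32.6 to 45.9 FPKM in ERβKO ovaries. Its log2 fold change was 0.09 (standard error 0.13, 95% interval -0.19 to 0.38, edgeR adjusted p = 0.738). Por (ENSMUSG00000005514) is on chromosome 5 of GRCm38 from 135670033 to 135735326. The spread between ovaries of one genotype thus differed among the genes. The standard deviation of log2 CPM (counts scaled to the TMM-normalized library size) within genotypes was 0.22 for Por, 0.36 for Fdxr, 0.38 for Hsd3b1, 0.48 for Cyp11a1, 0.55 for Fdx1, 0.78 for Hsd3b6, 0.81 for Star, 1.40 for Cyp19a1 and 2.03 for Cyp17a1. The spread of Cyp17a1 was above that of 99.9% of the tested genes with a mean over 5 FPKM. The same share was 99.8% for Cyp19a1, 99.2% for Star, 96.0% for Cyp11a1 and 77.4% for Por.

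Ratios between genes of the same ovary do not depend on library size, and 8 of them were compared between the genotypes. The smallest p that the two-sided exact permutation test over the splits of 5 and 4 ovaries allows is 0.0159. After adjustment over the 8 ratios none passed 0.05. A single ratio could not have passed, even at that smallest p, unless others had reached similarly small values. The FPKM of Star relative to Cyp11a1 was 0.116, 0.0846, 0.174, 0.167 and 0.175 in the WT ovaries and 0.0977, 0.0575, 0.0785 and 0.0421 in the ERβKO ovaries. Star thus differed by more than Cyp11a1, and only WT replicate 2 lay within the ERβKO range. The mean log2 ratio was -2.86 ± 0.46 in WT and -3.93 ± 0.53 in ERβKO ovaries (mean ± SD, n = 5 WT and n = 4 ERβKO), a difference of -1.07 (two-sided exact permutation test, p = 0.0317, adjusted p = 0.190). Cyp17a1 relative to Cyp11a1 was 0.0318, 0.146, 0.00172, 0.0263 and 0.0129 in WT and 0.0736, 0.641, 0.434 and 0.112 in ERβKO ovaries. Here too WT replicate 2 was the only WT ovary within the ERβKO range. The difference in the mean log2 ratio was 3.50 (exact permutation test, p = 0.0476, adjusted p = 0.190). For the other 6 ratios the difference in the mean log2 ratio, ERβKO minus WT, was 0.29 for Hsd3b1 to Cyp11a1, 0.30 for Fdx1 to Cyp11a1, -0.12 for Fdxr to Fdx1, 0.65 for Hsd3b6 to Hsd3b1, -1.68 for Cyp19a1 to Cyp17a1 and -2.54 for Por to Cyp17a1, with adjusted p-values from 0.222 to 0.746 in the exact permutation test. Without WT replicate 3, whose Cyp17a1 was far below all others, the difference was 2.63 for Cyp17a1 to Cyp11a1, -0.89 for Cyp19a1 to Cyp17a1 and -1.51 for Por to Cyp17a1. The steadiest ratios over the 9 ovaries were those of Hsd3b1 to Cyp11a1, from 1.56 to 2.74, and of Fdx1 to Cyp11a1, from 0.0873 to 0.168.

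**Figure D3:**
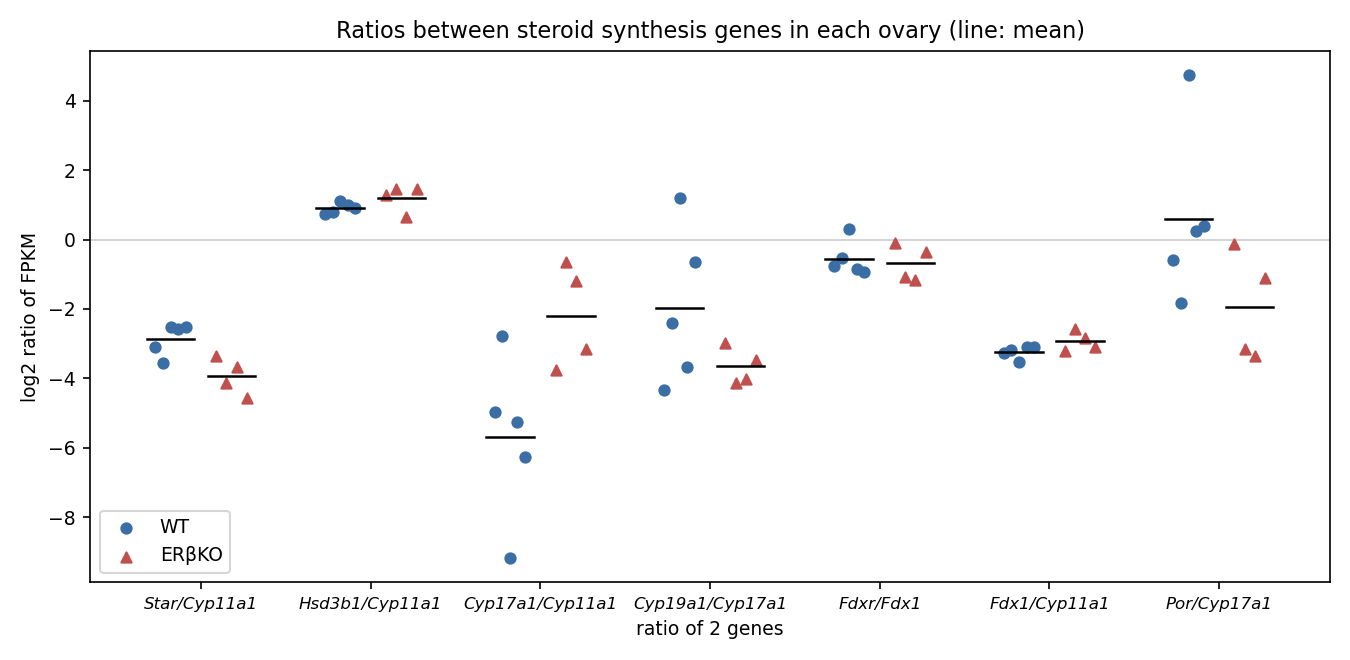
Log2 ratio of the FPKM of 2 genes in each ovary, for 7 of the 8 ratios (WT circles, ERβKO triangles, line at the mean). Star to Cyp11a1 is lower and Cyp17a1 to Cyp11a1 higher in most ERβKO ovaries, and the ratios with Cyp17a1 spread the most.

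The 9 genes together took 0.193% to 0.464% of the summed FPKM of a WT library and 0.188% to 0.244% of that of an ERβKO library. The means were 0.324 ± 0.11% and 0.210 ± 0.026% (mean ± SD, n = 5 WT and n = 4 ERβKO), and the difference of -0.113 percentage points had p = 0.0635 in a two-sided exact permutation test. Without WT replicate 2 it was -0.146 with an exact p of 0.0286. Hsd3b1 and Cyp11a1 made up 76.6% to 89.8% of the summed FPKM of the 9 genes in every ovary.

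Co-variation between ovaries was measured on log2 CPM after subtracting the mean of each genotype, so that the genotype difference itself did not enter. Of the 36 pairs, 24 had r above 0. Star, Cyp11a1, Hsd3b1, Fdx1 and Fdxr had r from 0.42 to 0.92 in all 10 of their pairs (median 0.72). Without the 2 ovaries farthest from the median of the first gene of a pair, r was 0.14 for Fdx1 and Fdxr and 0.34 for Hsd3b1 and Fdxr, and it was 0.54 to 0.84 in the other 8. Cyp17a1, Cyp19a1 and Hsd3b6 were correlated at 0.55 to 0.58 with each other. Por had r from -0.50 to 0.40 with the other genes. After adjustment over the 36 pairs, the pair of Star and Cyp11a1 alone passed 0.05.

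**Figure D4:**
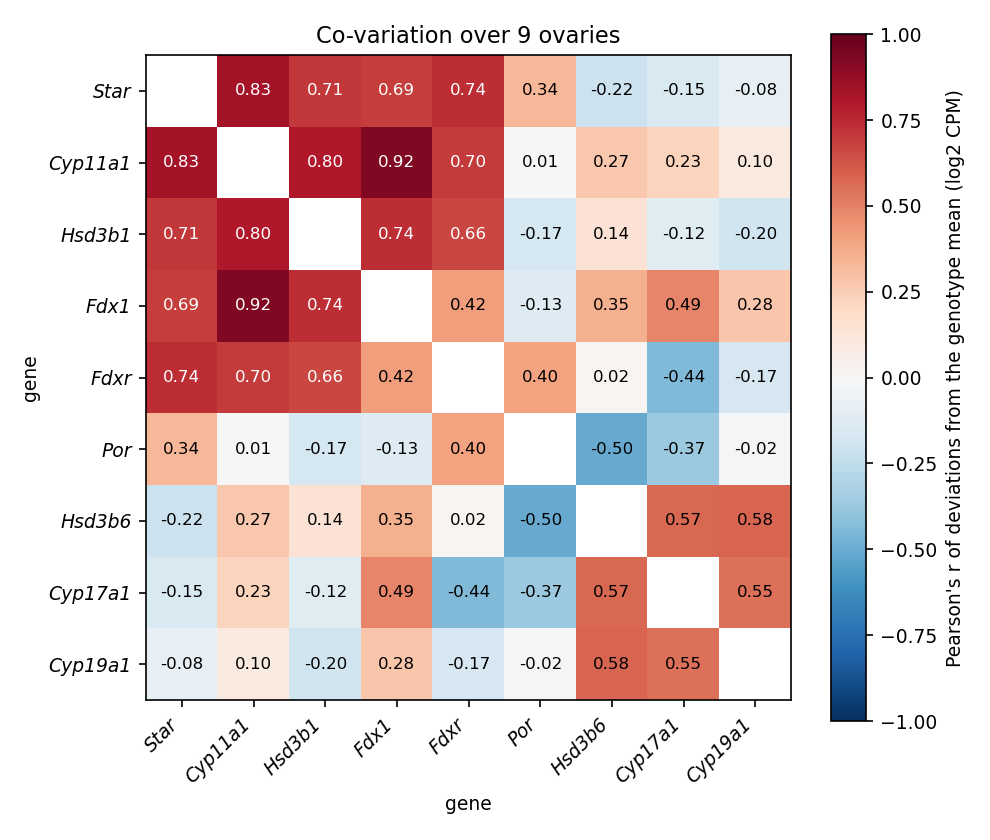
Pearson's r of the deviations of log2 CPM from the genotype mean, over 9 ovaries, for the 36 pairs of genes. The block from Star to Fdxr holds values from 0.42 to 0.92, and the block of Hsd3b6, Cyp17a1 and Cyp19a1 values from 0.55 to 0.58.

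Star and Cyp11a1 had a Pearson's r of 0.83 (exact permutation within genotypes, p = 0.00104, adjusted p = 0.0375) and a Spearman's rho of 0.90 (exact permutation p = 0.00139, adjusted p = 0.05). Without the 2 ovaries farthest from the median of Star, r was 0.80. With any 1 ovary left out, r ran from 0.76 to 0.88 and the adjusted p of the exact permutation test from 0.07 to 0.509. Fewer orders within genotypes are possible then, and a single pair could not pass 0.05 whatever its r. These adjusted p-values thus cannot tell whether the call depends on 1 ovary. WT replicate 2 had the lowest deviation of both genes (-1.31 for Star and -0.58 for Cyp11a1 on the log2 scale), and WT replicate 5 and ERβKO replicate 3 the highest for both. Among all tested genes, 0.885% had an r with Star at least as high as that of Cyp11a1.

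Cyp11a1 and Fdx1, its electron carrier, had the highest r of the 36 pairs, at 0.92 (exact permutation p = 0.00938, adjusted p = 0.113), with a rho of 0.85 (exact permutation p = 0.0142, adjusted p = 0.256). It was 0.82 without the 2 ovaries farthest from the median of Cyp11a1. WT replicates 1 and 5 and ERβKO replicate 3 were high in both genes and the other 6 ovaries were near or below the means, so that r rests on these 3 ovaries against the rest. In all tested genes, 0.155% had an r with Cyp11a1 as high as Fdx1 or higher. The r of Cyp11a1 with Hsd3b1 was 0.80 (exact permutation p = 0.00938, adjusted p = 0.113; rho 0.72, exact p = 0.0653). Cyp17a1 and Cyp19a1, whose enzymes act in sequence in neighbouring cell types, had an r of 0.55 (exact permutation p = 0.156, adjusted p = 0.532; rho 0.43, exact p = 0.297). The r of Cyp17a1 with Star was -0.15 and with Cyp11a1 0.23 (adjusted p = 0.903 for both in the exact permutation test), so that a relation was not detected with 9 ovaries.

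**Figure D5:**
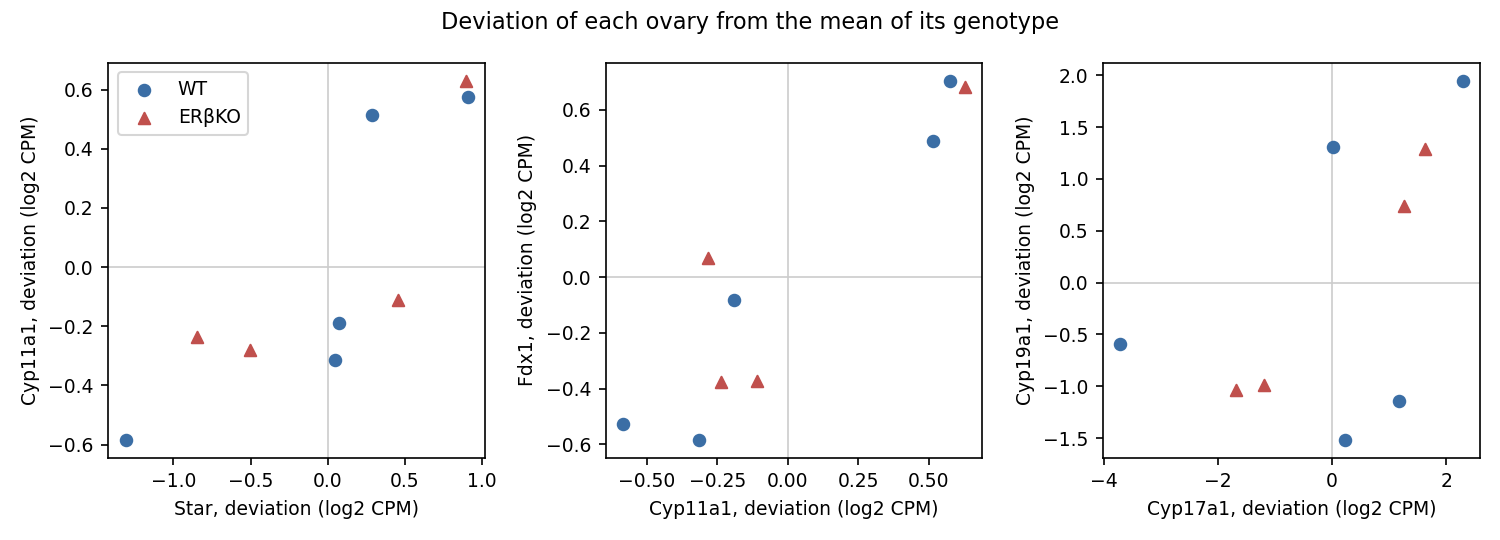
Deviation of each ovary from the mean of its genotype in log2 CPM for 3 pairs of genes (WT circles, ERβKO triangles). Star and Cyp11a1 (r = 0.83) and Cyp11a1 and Fdx1 (r = 0.92) are high in the same ovaries, while Cyp17a1 and Cyp19a1 (r = 0.55) scatter over a wider range.

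The promoters of the 9 genes were searched for motifs of factors known from steroid synthesis genes, on both strands and from 250 bases before to 50 bases after the RefSeq start. The table of windows held 10 windows of 7 of the genes and no entry for Star or Cyp17a1. The GATA site (AGATAA or TGATAA) was found in the windows of Hsd3b1, Hsd3b6, Fdx1 and Fdxr, at 134, 31, 192 and 177 bases before the start, and in 18.6% of all 32851 windows. The NR5A site (AAGGTCA or AAGGCCA) was present in 1 window of Cyp19a1, after the start, and in 10.6% of all windows. TATAAA was found in 2 windows of Cyp19a1 and in 13.6% of all windows. The full estrogen response element (in 0.07% of all windows) and the full cAMP response element (in 1.79%) had no match in the 10 windows. Not all windows lie at the gene bounds printed above. Those of Cyp11a1 were chr9:57997774-57998073 and chr9:58014702-58015001, and that of Por was chr5:135688895-135689194. All Cyp19a1 windows, chr9:54268115-54268414 (NR5A site), chr9:54228865-54229164 and chr9:54193694-54193993 (TATAAA in both), lie beyond its printed span. The Fdx1 window, chr9:51963553-51963852, lies just beyond its printed span. The printed starts of Cyp11a1, Por, Cyp19a1 and Fdx1 were thus not searched. The bases before the start are shown for Hsd3b1, Fdx1 and Fdxr, which held a GATA match, with the match in capitals, as chr3:98859795-98860044 for Hsd3b1, chr9:51963603-51963852 for Fdx1 and, only as far as it lies outside the gene, chr11:115277051-115277219 for Fdxr (RefSeq, GRCm38.p6, minus strand, shown 5′ to 3′ along the gene).
Hsd3b1: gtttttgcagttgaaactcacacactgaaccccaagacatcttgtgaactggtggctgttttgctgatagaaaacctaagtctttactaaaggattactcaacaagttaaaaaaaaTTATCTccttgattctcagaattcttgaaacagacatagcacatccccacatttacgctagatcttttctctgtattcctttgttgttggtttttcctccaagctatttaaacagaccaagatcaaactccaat
Fdx1: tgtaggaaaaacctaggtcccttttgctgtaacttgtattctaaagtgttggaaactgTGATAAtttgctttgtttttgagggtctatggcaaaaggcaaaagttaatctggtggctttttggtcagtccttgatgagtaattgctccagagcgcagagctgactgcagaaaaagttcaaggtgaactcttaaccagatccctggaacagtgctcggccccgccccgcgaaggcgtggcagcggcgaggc
Fdxr: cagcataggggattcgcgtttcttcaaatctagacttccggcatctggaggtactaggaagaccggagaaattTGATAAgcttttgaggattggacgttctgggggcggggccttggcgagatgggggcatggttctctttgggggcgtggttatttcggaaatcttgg
In Hsd3b1 the match lies on the opposite strand and so reads TTATCT in the line shown. The gene Gata4, which codes for a GATA factor of granulosa and theca cells, had 34.1 ± 6.5 FPKM in WT against 54.1 ± 10 FPKM in ERβKO ovaries (mean ± SD, n = 5 WT and n = 4 ERβKO), a log2 fold change of 0.63 (edgeR adjusted p = 0.0628; called by DESeq2). Gata6, another GATA gene on the list of transcription factors, had 16.0 ± 4.4 FPKM in WT against 14.4 ± 1.8 FPKM in ERβKO ovaries. Its log2 fold change was -0.18 (edgeR adjusted p = 0.622), and neither tool called it. Gata4 and Gata6 are named here after their values were seen.

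Markers of the cell types that hold these enzymes, and of other cell types, were compared between the genotypes as well. Their calls stand against 1.72% of all tested genes called by edgeR and 4.78% by DESeq2, and 7.61% of all tested genes had FPKM values that did not overlap between the genotypes. Of the 8 luteal markers, 7 had a log2 fold change below 0 (median -0.89). edgeR called 0 of them and DESeq2 2, Hsd17b7 and Parm1, both lower. Their summed level was 366 to 1155 FPKM in WT and 215 to 1215 FPKM in ERβKO ovaries. Of the 10 granulosa markers, 9 had a log2 fold change above 0 (median 0.41). Of these 1, Hsd17b1, was called higher by edgeR and 4 by DESeq2. The summed level of the 10 markers did not overlap between WT (920 to 1119 FPKM) and ERβKO ovaries (1157 to 1537 FPKM). Most of this sum came from Inha and Gja1, both called higher by DESeq2 only. The mean of Inha was 352 FPKM in WT against 509 in ERβKO ovaries, and that of Gja1 339 against 509. The 7.61% given above counts single genes and is no background for a sum. The 6 theca markers tested had a median log2 fold change of 0.02 and none was called by either tool, at 29.4 to 45.3 FPKM in sum in WT and 25.7 to 45.03 FPKM in ERβKO ovaries. Insl3, a defining hormone of theca cells, reached at most 1.82 FPKM. All 6 adipocyte markers had a log2 fold change above 0 (median 1.28; 0 called by edgeR and 2 by DESeq2), with a sum of 136 to 260 FPKM in WT and 155 to 1003 FPKM in ERβKO ovaries. Oviduct and surface epithelium markers summed to 1403 to 2516 FPKM in WT and 1663 to 2074 FPKM in ERβKO ovaries. The 6 adrenocortical markers summed to 26.8 to 67.2 FPKM in WT and 11.3 to 26.1 FPKM in ERβKO ovaries, mostly from Mrap (45.6 ± 16 FPKM in WT against 18.8 ± 6.8 FPKM in ERβKO ovaries, mean ± SD, n = 5 WT and n = 4 ERβKO, lower by DESeq2), and 3 of the 6 were under 1 FPKM in every ovary. The oocyte, stromal, endothelial, macrophage, erythroid and oviduct lists had 0 calls by either tool. The part of these cell types in the values of Star, Cyp11a1 and Cyp17a1 was not tested.

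Within genotypes, the mean log2 CPM of the luteal markers was correlated with Cyp11a1 at r = 0.78, with Fdx1 at 0.73, with Hsd3b1 at 0.50 and with Star and Fdxr at 0.42. The endothelial markers had a median log2 fold change of -0.09. They were correlated with Fdxr at r = 0.92, with Star at 0.81, with Hsd3b1 at 0.74, with Cyp11a1 at 0.70 and with Fdx1 at 0.46. The oviduct and surface epithelium markers were correlated with Fdxr at -0.84 and with Hsd3b1 at -0.75. Cyp19a1 was correlated with the granulosa markers at r = 0.65 and with the theca markers at -0.81, and Cyp17a1 with the theca markers at -0.69. Por had its highest r, 0.91, with the 4 tested adrenocortical markers. Of these 4, Akr1b7 had at most 21 counts and Mc2r at most 51 in any ovary, and the level of Cyp11b1 rested on WT replicate 3. All these correlations are descriptions over 9 ovaries that share their libraries, with no test.

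Genes around the 9 were taken from 8 lists of 63 genes, of which 53 were tested. By edgeR 3 were called, all higher in ERβKO ovaries, or 5.66% of those tested against 1.72% of all tested genes. By DESeq2 10 were called (8 higher and 2 lower), where 4.78% of all tested genes were. The 3 are Hsd17b1, Cebpa and Prkar2b. In edgeR the count was 0 without WT replicate 1, ERβKO replicate 2 or ERβKO replicate 3, 1 without WT replicate 4, WT replicate 5 or ERβKO replicate 4, and 12 without WT replicate 2. The median log2 fold change of the 53 genes was 0.06.

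Hsd17b1, which turns estrone into estradiol, rose from 48.2 ± 9.0 FPKM in WT to 85.1 ± 19 FPKM in ERβKO ovaries (mean ± SD, n = 5 WT and n = 4 ERβKO), a log2 fold change of 0.77 (edgeR adjusted p = 0.0363). It is also one of the granulosa markers. The other 5 later steroid enzymes tested did not pass in edgeR. Hsd17b7, at 41.1 ± 33 FPKM in WT against 7.71 ± 5.5 FPKM in ERβKO ovaries (mean ± SD, n = 5 WT and n = 4 ERβKO), had the lowest log2 fold change of them, -2.48 (edgeR adjusted p = 0.118, and lower by DESeq2). Hsd17b3, an enzyme of testosterone synthesis, had the highest, 1.47 (edgeR adjusted p = 0.0788, and higher by DESeq2), at 0.606 ± 0.31 FPKM in WT against 1.57 ± 0.51 FPKM in ERβKO ovaries (mean ± SD, n = 5 WT and n = 4 ERβKO).

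Of the 12 transcription factors of steroid enzyme genes, Cebpa rose from 4.77 ± 0.82 to 10.2 ± 3.4 FPKM (mean ± SD, n = 5 WT and n = 4 ERβKO), a log2 fold change of 1.09 (edgeR adjusted p = 0.0363). C/EBPα is also a factor of fat cells, whose markers are given above. Nr5a1, which codes for steroidogenic factor SF-1, had a log2 fold change of 0.39 (edgeR adjusted p = 0.139). Of the 7 genes of gonadotropin receptors and cAMP signalling, Prkar2b, a regulatory subunit of protein kinase A, rose from 110.3 ± 15 to 206 ± 43 FPKM (mean ± SD, n = 5 WT and n = 4 ERβKO), a log2 fold change of 0.86 (edgeR adjusted p = 0.0215). Fshr, the receptor of follicle-stimulating hormone, had a log2 fold change of 1.06 (edgeR adjusted p = 0.0664, higher by DESeq2).

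None of the 10 cholesterol supply genes was called by either tool (median log2 fold change -0.26). They ran from -0.83 for Scarb1, the HDL receptor, to 0.46 for Lipe, the hormone-sensitive lipase. Other electron donors had 0 calls in edgeR and 1 in DESeq2, and ran from -0.77 for Nnt to 0.30 for Cyb5r1. Among the 3 other mitochondrial P450 enzymes tested, 0 were called in edgeR and 1, Cyp27a1 (log2 fold change 0.41), in DESeq2, and the lowest was Cyp11b1 (-4.26), whose level rested on WT replicate 3. The 7 other partners of Por that were tested had 0 calls by either tool and ran from -1.44 for Dhcr7, of cholesterol synthesis, to 0.40 for Cyp26b1.

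The genes whose log2 CPM followed 4 of the enzymes most closely over the 9 ovaries were ranked among 9423 other genes with a mean over 5 FPKM, with no test. Here r was taken over the 9 ovaries without subtracting the genotype means, so that the genotype difference enters. Star was followed most closely by Ndufaf2 (r = 0.98), Sbk1, Fam136a, Sh3bp1 and Epb4.1l1 (r = 0.97 each). With the genotype means subtracted, r with Star was 0.96 for Ndufaf2, 0.93 for Sbk1, 0.93 for Fam136a, 0.97 for Sh3bp1 and 0.91 for Epb4.1l1. Of these, Fam136a was itself called lower in ERβKO ovaries, from 31.8 to 19.6 FPKM (log2 fold change -0.73, edgeR adjusted p = 0.0323). Closest to Cyp11a1 were Slc23a2 (r = 0.99), a vitamin C transporter, Mief2 (r = 0.98), Ppp4r1 and Etfdh (r = 0.97 each) and Ghitm (r = 0.96). For Cyp17a1 they were Znf512b (r = 0.97), Ppp1r15a (r = 0.95), Smim1 (r = 0.94), Ppp5c and Slc25a35 (r = 0.93 each). Cyp19a1 had 1810037I17Rik (r = 0.93), Otub1 (r = 0.92), Vta1, Plekha8 and Ccdc25 (r = 0.91 to 0.92).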

How the data were processed

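RNA-seq libraries of polyadenylated RNA, made with a stranded kit from 5 WT and 4 ERβKO ovaries, were analysed. Per the labels and the methods, the authors used bcl2fastq (2.20.0.422), CASAVA, Trim Galore and STAR on GRCm38. The authors counted fragments on genes with featureCounts and deposited these counts without normalization; whether the strand was used is not stated. The deposited FPKM values were calculated by the authors with StringTie, per kilobase and scaled to depth. The deposited TPM values, also made by the authors with StringTie, were used for alternatives only.

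Counts were filtered with filterByExpr, normalized by TMM and tested with edgeR 4.0.16 (quasi-likelihood, Benjamini-Hochberg) in R 4.3.3. DESeq2 1.42.0, the tool of the study, and limma 3.58.1 on log2(FPKM + 1) were alternatives. A gene was called by the study's thresholds on adjusted p, log2 fold change and FPKM. Ratios, shares and correlations used two-sided exact permutation tests in SciPy 1.17.1 with Python 3.11.15, over all splits of the ovaries or, for correlations, all orders within genotypes. The tests were tried on simulated counts. Replicates are separate mice. The text names the 9 genes, the genes called on each list (in a list without calls, those with the largest and smallest log2 fold change) and the 5 genes most like each of 4 enzymes. Esr2 is named as the deleted gene, and Gata4, Gata6, Fshr, Nr5a1, Inha, Gja1, Hsd17b3, Hsd17b7, Parm1, Mrap, Mc2r, Akr1b7, Insl3, Ovgp1, Cyp21a1, Cyp11b2 and Hsd3b2 to Hsd3b5 were named after their values were seen. The 9 genes and all lists were chosen with earlier results of these data known. The symbols Hsd3b8 and Hsd3b9 of the Hsd3b list were not used here, and Fdx2 was read under its older symbol. Sequences come from RefSeq (GRCm38.p6) and the coding sequences from GENCODE vM21.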

Additional observations from a re-analysis of the deposited data

Results flagged for a closer look

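The level of Cyp11a1 in ERβKO replicate 3, at 1088 FPKM, lay far from the other 3 ERβKO ovaries, of which the nearest had 680 FPKM. The gap was 0.850 of the range of the 4 ovaries, above the critical value of Dixon's test. It was the only such value in 36 groups of values (the 9 genes, the 8 ratios and the share of FPKM, in each genotype), and chance marks about 1 group in 20. In the same ovary Fdx1 (151 FPKM), Star (85.4 FPKM), Cyp17a1 (472 FPKM), Cyp19a1 (29.4 FPKM) and, narrowly, Por (45.9 FPKM) were the highest of the ERβKO ovaries. Hsd3b1 (1694 FPKM), Fdxr (66.7 FPKM) and Hsd3b6 (0.758 FPKM) were not.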

How the results depend on the processing

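Without filters or with other tools, the count of the 9 genes called (0) became 3 with DESeq2, 3 with DESeq2 and no filter on low counts (an alternative chosen after seeing the data) and 1 (Star) with edgeR and no filter. With each ovary left out it ran from 0 to 4, the 4 without WT replicate 2. All other settings gave 0. The genes called over all tested genes (287, 153 higher and 134 lower) became 800 (372 and 428) with DESeq2, 803 (376 and 427) with DESeq2 and no filter, 51 (30 and 21) in the 7 libraries numbered below 200 in the labels, 191 (75 lower) with limma, 39 (28 and 11) with limma and no filter, and 86 lower with limma and a pseudocount of 0.1. They ran from 60 (without ERβKO replicate 2) to 919 (without WT replicate 2) with each ovary left out, from 42 to 488 for those higher and from 18 to 431 for those lower. With the replicate number as a block they were 155 (66 and 89) and the block changed no call of the 9 genes; the numbers did not pair the ovaries, since same-numbered WT and ERβKO ovaries deviated together with r of 0.09, 0.13, -0.04 and -0.01. Of the list genes, 10 were called with DESeq2 (10 with no filter), 5 in edgeR with no filter, 0 in the libraries numbered below 200, 0 with limma and no filter, and 0 to 12 with an ovary left out.

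The log2 fold change of Por was -0.0027 in the libraries numbered below 200, and that of Hsd3b6 ran from -0.074 to 0.41 with an ovary left out. Hsd3b6 gave no value with at least 10 counts in every library. The other 7 genes kept their direction in the 20 alternatives. Among the ratios, Fdxr to Fdx1 ran from -0.31 to 0.10 with an ovary left out and was -0.34 in the libraries numbered below 200. These differences lay below the spread between ovaries. The other 7 ratios kept their direction and none passed the threshold. With fewer ovaries the smallest possible p is larger, so that the lack of a pass has little weight there. The share of FPKM ran from -0.146 (without WT replicate 2, past the threshold) to -0.078. Pairs that co-varied (1) were 0 on log2(FPKM + 1) and 8 pooled over the 9 ovaries, where the genotype difference enters. They were 0 in the libraries numbered below 200 and with any ovary left out. There, fewer orders within genotypes are possible, and a single pair could not pass the threshold whatever its r. These counts of 0 thus cannot tell whether the pair depends on the ovaries left out. The causes were not tested. The low counts of Hsd3b6 limit its precision, and 9 ovaries that of the correlations.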
